A study of Sus scrofa with 8 samples.

Results

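Genes of protein processing in the endoplasmic reticulum (ER) were followed through the conversion of pig (Sus scrofa) pluripotent stem cells into lung progenitor organoids. The members are the 154 of 25578 genes in the deposited table whose KEGG annotation, a catalogue of pathways, lists ER protein processing but not the spliceosome. The ER entry held 157 genes, and the 3 that it shared with the spliceosome entry (HSPA8, HSPA1L and HSPA6) were left out. Messenger RNA was sequenced at 4 stages with 2 libraries each: porcine pluripotent stem cells (PSC), definitive endoderm (DE, the germ layer that forms gut, liver and lung), anterior foregut endoderm (AFE, the fore part of the gut) and lung progenitor organoids (LPO, cultures grown as small clusters). The labels name each sample by stage and number alone. They give no cell line, genotype, treatment, culture time or animal, and do not say whether the 2 libraries of a stage were separate cultures. The p-values then reflect only how these samples differ from each other, possibly for technical reasons, and with 2 against 2 libraries the smallest p of an exact permutation test is 0.333.

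Proteins bound for the cell surface, the outside or the secretory organelles enter the ER through the SEC61 channel. There they receive sugar chains, fold with chaperones and form disulfide bonds, and leave in vesicles coated with COPII. Proteins that fail to fold are marked by sugar trimming, drawn back into the cytosol by the ATPase VCP, tagged with ubiquitin and destroyed, a route called ER-associated degradation. A load of unfolded protein is read by 3 membrane sensors, ERN1 (also called IRE1), EIF2AK3 (PERK) and ATF6, whose signals raise chaperones and degradation factors or slow translation. In lung these functions are best known in cells that secrete surfactant or mucus and in fibroblasts that secrete collagen.

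Levels across stages are counts per 1e6 counts after TMM scaling (CPM), and levels between genes of a stage are FPKM, which also divides by transcript length. Total counts were 36004372 and 42251431 in PSC and 61748702 to 67566269 in the other stages. The figure of about 4 counts for 1 read pair is inferred: among low counts, 46.4% to 50.7% were multiples of 4. The members held 2.56% to 2.84% of the counts in the PSC, DE and AFE libraries, and 3.41% and 3.43% in LPO. After TMM scaling their summed level lay between 27050 and 30340 CPM in all 8 libraries. The stage labels were checked against marker genes. The summed pluripotency markers were at 7465 to 8230 CPM in PSC and at most 533 CPM elsewhere, and the endoderm markers peaked in DE at 1443 to 1475 CPM. The anterior foregut markers did not peak in AFE: they summed to 76.0 to 81.0 CPM there and to 106.5 to 109.6 CPM in LPO. Of 6 lung markers 5 were in the table; they summed to 59.6 to 66.5 CPM in LPO and to 49.6 to 54.8 CPM in AFE. Of the surfactant genes among them, SFTPC had 0.262 and 0.441 CPM and SFTPB 4.61 and 4.18 CPM in LPO. SFTPB was higher in AFE, at 13.4 and 12.6 CPM, where SFTPC had no counts.

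Of the 154 members 152 had enough counts to be tested. The 2 others, the cargo receptor relative LMAN1L and the SEL1L relative SEL1L2, were at 0 in most libraries and at 0.201 CPM or less in the rest. Among the 152, 145 changed between stages (95.4%; F test of edgeR's quasi-likelihood model, called at an adjusted p below 0.05), against 79.2% of all 19346 tested genes. The 19346 genes were not matched to the members in expression level, on which calling depends. From PSC to DE 63 rose and 44 fell (41.4% and 28.9%), against 30.8% and 23.0% of all genes. From DE to AFE 29 rose and 46 fell (19.1% and 30.3%), against 17.9% and 17.4%. From AFE to LPO 61 rose and 57 fell (40.1% and 37.5%), against 30.2% and 29.6%. In LPO against PSC 75 were higher and 63 lower (49.3% and 41.4%), against 41.5% and 28.8%. The comparisons share libraries, so they are not independent of each other. The members did not move as one: in each comparison they split between rises and falls, and most roles held both. Counts by role and by list below have these shares of all genes as background, and none was tested against them.

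The median log2 change of the members was 0.13, -0.10, 0.12 and 0.18 in the 4 comparisons in that order, and that of all genes 0.08, 0.00, 0.09 and 0.49. Changes of 2-fold or more were called in 30 members upwards and 5 downwards from PSC to DE, 10 and 5 from DE to AFE, 35 and 30 from AFE to LPO, and 50 and 29 in LPO against PSC. The balance of small changes depended on the scaling. From PSC to DE the split became 44 higher and 50 lower with DESeq2 size factors. It was 37 and 63 with median centring. That scaling sets the median log2 difference of each library from the mean of all libraries to 0. The median of all genes moved from 0.08 to 0.00 and -0.07 under these scalings, and in LPO against PSC from 0.49 to 0.37 and 0.00. In LPO against PSC median centring gave 57 higher and 75 lower. FPKM values carry no TMM scaling, whose factors were 1.26 and 1.27 in the LPO libraries and 0.901 to 0.954 elsewhere, and tests on log2 FPKM gave 91 higher and 41 lower from AFE to LPO and 84 and 38 in LPO against PSC. Without AFE replicate 1 or 2, the members that fell from DE to AFE numbered 30 and 27.

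**Figure D1:**
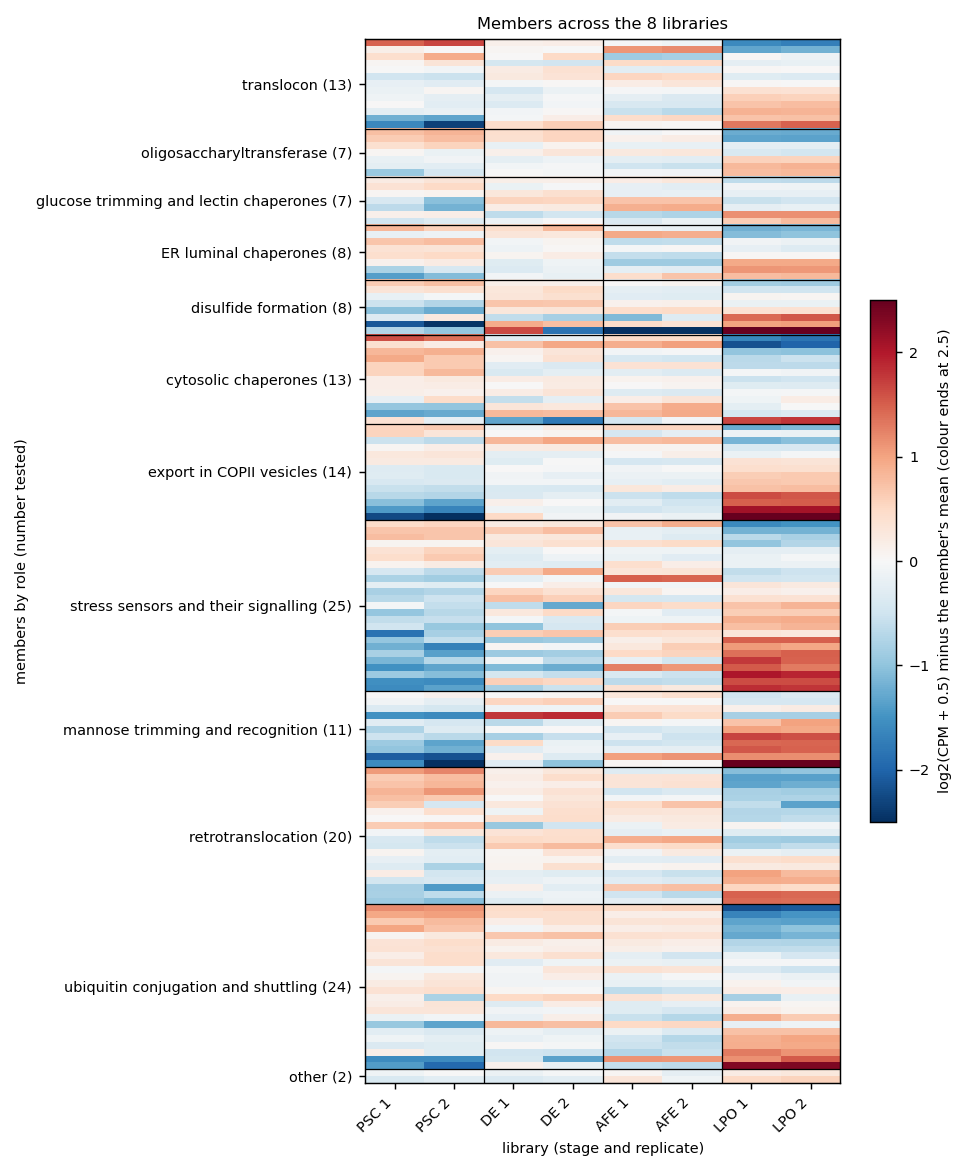
Levels of the 152 tested members (lines, grouped by role and ordered by their LPO to PSC difference) in each library (columns), as log2(CPM + 0.5) minus the member's mean over the 8 libraries. Red is above and blue below that mean; each role holds both red and blue lines in LPO, and the 2 libraries of a stage look alike apart from a few lines such as that of ERO1A, which has 203 CPM in DE 1 and 17.7 CPM in DE 2.

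By mean CPM 61 of the 152 members were highest in LPO, 42 in PSC, 25 in DE and 24 in AFE (40.1%, 27.6%, 16.4% and 15.8%). Over all tested genes the shares were 38.4%, 26.5%, 16.8% and 18.4%. These shares lie near those of all genes. The most abundant member per length was HSP90AB1, a cytosolic chaperone, with a mean of 2090 FPKM in PSC and 1155 FPKM in LPO. In PSC 15 of 150 members present in both libraries differed by over 1.5-fold between them (10%, against 22.6% of all genes), in DE 9 of 152 (5.92%, against 20.5%), and in AFE and LPO 2 of 152 each (1.32%, against 17.1% and 13.4%).

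Measures outside the members moved with the step to LPO and stand beside every result on it. In bulk samples fewer cells of a type and less RNA per cell cannot be told apart. The 8 fibroblast markers, among them the collagens COL1A1, COL1A2 and COL3A1, summed to 9.66 and 10.2 CPM in PSC, 134 to 282 CPM in DE, 337 to 343 CPM in AFE and 6414 to 6593 CPM in LPO, with none at 0 in LPO. The 5 plasma and secretory cell markers stayed at 12.9 to 15.3 CPM in LPO, below the 20.5 to 26.3 CPM of AFE. The part of fibroblast-type RNA in the members' changes was not tested.

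Change also went with mRNA length in that step. With all genes sorted by length into 5 groups of equal number, from short to long, the median log2 change from AFE to LPO was -0.77, -0.30, 0.08, 0.43 and 0.67. For the members in the same groups it was -0.93, -0.31, -0.06, 0.66 and 0.51, so that 16 of 22 members in the shortest group fell and 22 of 39 in the longest rose. From DE to AFE the medians of all genes stayed between -0.02 and 0.01. Across genes, which are not independent replicates and share libraries and depth, Spearman's rho of the change from AFE to LPO with length was 0.251 over 17472 genes and 0.374 over the 152 members. Where the trend of all genes with length was subtracted, 53 members were higher and 58 lower from AFE to LPO, 56 and 76 in LPO against PSC and 37 and 61 from PSC to DE. Whether the trend is one of the cells or of the libraries was not tested. For members named below, values with it removed are given where they differ by over 1.5-fold or end a call. For genes outside the members no such values are given.

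**Figure D2:**
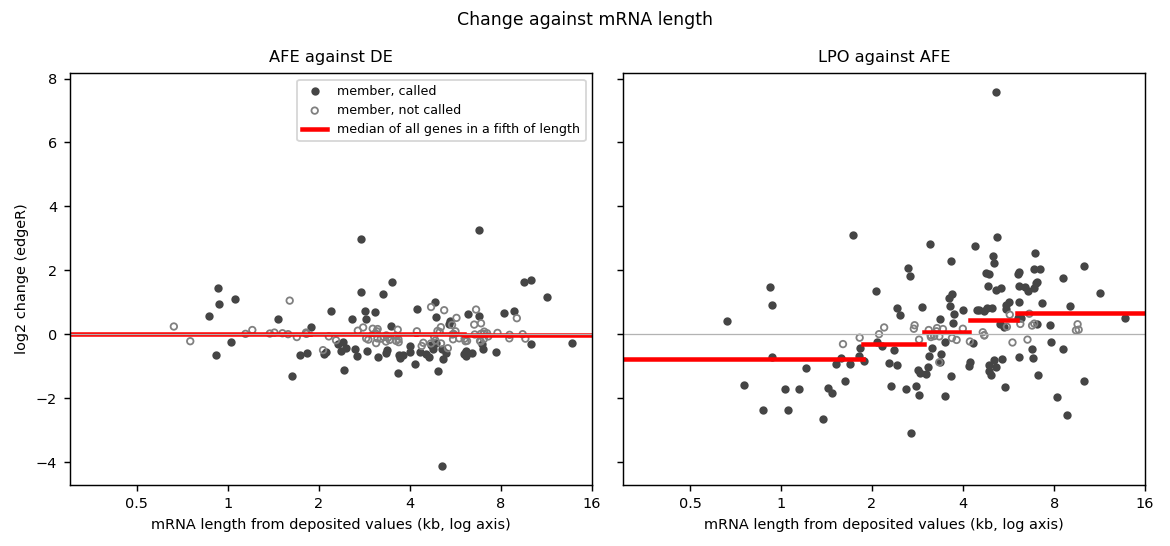
Log2 change of the members (points, filled where called) against mRNA length on a log axis, from DE to AFE and from AFE to LPO; red bars give the median of all genes in each of 5 length groups. The red bars lie near 0 from DE to AFE and climb from -0.77 to 0.67 from AFE to LPO, and the members' medians run from -0.93 to 0.51.

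In translocation into the ER the channel pore SEC61A1 rose into LPO while the other channel subunits SEC61B and SEC61G fell. Of 13 members 5 rose and 2 fell from PSC to DE (30.8% and 23.0% of all genes) and 5 and 3 from DE to AFE (17.9% and 17.4%). From AFE to LPO 8 rose and 5 fell (30.2% and 29.6% of all genes), or 5 and 6 with the length trend removed. SEC61A1, the pore of the channel, had 243 and 199 CPM in PSC, 188 and 229 in DE, 180 and 181 in AFE, and 390 and 407 in LPO. Its LPO libraries were above all others, while those of PSC and DE overlapped. The rise from AFE to LPO was 2.2-fold (log2 change 1.14, SE 0.12, edgeR adjusted p = 7.2e-05). SEC61G, the smallest channel subunit, had 154 and 175 CPM in PSC, 60.0 and 61.3 in DE, 53.5 and 51.0 in AFE, and 18.0 and 16.6 in LPO. No stages overlapped, though the step from DE to AFE did not pass the test (adjusted p = 0.10), and it was 9.53-fold lower in LPO than in PSC (log2 change -3.25, SE 0.10, adjusted p = 9.3e-08). Its fall from AFE to LPO had a log2 change of -1.60, and of -0.85 with the length trend removed. SEC61B, the third subunit, had 134 and 129 CPM in PSC, 221 and 237 in DE, 273 and 264 in AFE, and 152 and 148 in LPO. It rose from PSC to DE (log2 change 0.80, adjusted p = 2.8e-05) and fell from AFE to LPO (-0.84, adjusted p = 1.4e-05).

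CKAP4, which shapes ER sheets and holds ribosomes to them, had 12.1 and 7.16 CPM in PSC, 51.8 and 58.7 in DE, 39.6 and 38.5 in AFE, and 95.1 and 106 in LPO. It was higher in every later library than in PSC, by 5.7-fold in DE (log2 change 2.52, SE 0.22, adjusted p = 3.6e-05) and by 10.4-fold in LPO. SSR4, a subunit of the translocon-associated complex, had 378 and 340 CPM in PSC, 352 and 337 in DE, 725 and 766 in AFE, and 138 and 149 in LPO. It peaked in AFE and was lowest in LPO. The rise to AFE was 2.16-fold (adjusted p = 2.9e-05) and the fall to LPO 5.19-fold (log2 change -2.37, SE 0.08, adjusted p = 3.1e-07; -1.61 with the length trend removed). SSR2, its partner and the most abundant translocon member per length (mean 996 FPKM in AFE), moved the same way, from 547 and 532 CPM in DE to 1026 and 1044 in AFE and 629 and 647 in LPO. With the length trend removed its log2 change from AFE to LPO was 0.07 in place of -0.70, and on the FPKM scale it was -0.20 and no longer called. SEC62, which helps proteins enter after translation, fell 2.2-fold from DE to AFE (117 and 164 CPM to 63.0 and 65.1, adjusted p = 0.0033).

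The oligosaccharyltransferase complex, which moves the sugar tree onto the growing chain, held both rises and falls into LPO. The catalytic subunits STT3A and STT3B rose from AFE to LPO, STT3A from 108 and 104 to 270 and 280 CPM (log2 change 1.37, SE 0.06, adjusted p = 1.0e-06) and STT3B from 122 and 120 to 216 and 213 CPM (log2 change 0.83, adjusted p = 2.2e-05). Per length the pair stayed near parity: STT3A held 44.9% to 55.3% of their summed FPKM in all 8 libraries. DDOST, a structural subunit and the most abundant of the complex per length, fell from 403 and 410 to 259 and 245 CPM (log2 change -0.69, adjusted p = 2.7e-04). With the length trend removed the DDOST change was -0.10, and the call ended. It ended too on the FPKM scale (log2 change -0.20). Of 7 members 3 rose (STT3A, STT3B, TUSC3), 3 fell (DDOST, RPN2, DAD1) and RPN1 was not called. Over all genes 30.2% rose and 29.6% fell.

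Of the luminal chaperones, HSPA5, HSP90B1 and HYOU1 fell in both early steps and rose into LPO. HSPA5 (BiP, the main ER chaperone, which also holds the stress sensors inactive; chromosome 1, 265930045 to 265934894, genome build not given in the sources used here) had 985 and 1057 CPM in PSC, 737 and 849 in DE, 494 and 496 in AFE, and 1754 and 1760 in LPO. The stages did not overlap: the order was LPO, PSC, DE, AFE. The change was 1.29-fold lower in DE, a further 1.60-fold lower in AFE and then 3.55-fold higher in LPO (log2 change 1.83, SE 0.08, adjusted p = 6.7e-07). HSP90B1 (GRP94, a chaperone of receptors and integrins) had 1244 and 1312 CPM in PSC, 977 and 1063 in DE, 612 and 602 in AFE, and 949 and 946 in LPO. Its recovery stopped short of PSC: LPO was 1.56-fold above AFE (adjusted p = 3.5e-05) and 1.35-fold below PSC (log2 change -0.43, adjusted p = 2.7e-04), and on the FPKM scale LPO and PSC differed by -0.02 on log2, which ended that call. HYOU1, which recharges HSPA5 with ATP, had 421.8 and 444.4, 249 and 275, 168 and 169, and 246 and 234 CPM in the same order. Its rise into LPO (log2 change 0.51, adjusted p = 3.8e-04) turned to -0.06 with the length trend removed.

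The co-chaperones of HSPA5 went separate ways. DNAJC3, which also restrains EIF2AK3, stayed at 20.1 to 31.8 CPM through PSC, DE and AFE and rose to 76.4 and 75.8 CPM in LPO (2.57-fold over AFE, log2 change 1.36, SE 0.14, adjusted p = 6.9e-05; 0.75 with the length trend removed). SIL1, an exchange factor like HYOU1, ran opposite to it, with 75.3 and 79.3 CPM in PSC, 106 and 103 in DE, 166 and 162 in AFE, and 40.4 and 42.6 in LPO. No stages of SIL1 overlapped, and the fall from AFE to LPO was 3.95-fold (log2 change -1.98, SE 0.07, adjusted p = 4.7e-07). The fall was larger with the length trend removed (-2.71) and smaller on log2(FPKM + 1) (-1.36). DNAJB11 fell in the same step and DNAJC1 rose in the earlier ones. In all, 4 of 8 luminal chaperones rose from AFE to LPO and 3 fell, against 30.2% and 29.6% of all genes.

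The lectin cycle keeps glycoproteins with chaperones until they fold. CANX (calnexin, the membrane lectin) had 305 and 313 CPM in PSC, 180 and 203 in DE, 171 and 162 in AFE, and 615 and 612 in LPO. LPO lay above all other libraries, 3.68-fold over AFE (log2 change 1.88, SE 0.07, adjusted p = 5.7e-07) and 1.99-fold over PSC; the latter became a log2 change of 0.28 with the length trend removed. CALR (calreticulin, its soluble counterpart) had 1264 and 1287, 1488 and 1606, 1051 and 1067, and 1062 and 1051 CPM, so that AFE and LPO overlapped (log2 change 0.00, SE 0.05, adjusted p = 0.96). On the FPKM scale the same difference was 0.49, and with the length trend removed 0.41. UGGT1, which re-tags misfolded glycoproteins for another round, was highest in PSC (87.1 and 96.7 CPM) and lay at 56.2 to 66.4 CPM in the other 6 libraries. Its rarer relative UGGT2 rose from AFE to LPO, from 6.09 and 7.02 to 12.5 and 14.0 CPM (adjusted p = 0.0016), a call that ended with the length trend removed (log2 change 0.44). Of 7 members 2 rose and 3 fell in that step, against 30.2% and 29.6% of all genes. The falls were the glucosidase genes MOGS, GANAB and PRKCSH, whose products trim the sugar tree.

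In disulfide formation 4 of 8 members rose and 1 fell from PSC to DE (30.8% and 23.0% of all genes). From DE to AFE 5 fell (17.4% of all genes) and the other 3 were not called. From AFE to LPO 4 rose and 3 fell (30.2% and 29.6%). The rises to DE were those of P4HB, PDIA4, PDIA6 and TXNDC5. P4HB (protein disulfide isomerase, also the partner subunit of collagen prolyl 4-hydroxylase; chromosome 12, 1121824 to 1131289) had 229 and 181 CPM in PSC, 1881 and 1665 in DE, 1363 and 1268 in AFE, and 1988 and 2037 in LPO. PSC stood apart from the 6 other libraries. The rise to DE was 8.65-fold (log2 change 3.11, SE 0.12, adjusted p = 8.3e-07), and LPO was 9.81-fold above PSC. The fall from DE to AFE (log2 change -0.43, adjusted p = 0.018) was no longer called without DE replicate 1 (-0.34), AFE replicate 1 (-0.49) or AFE replicate 2 (-0.38). Among 6 isomerase relatives P4HB went from 6.79% and 8.70% of the summed FPKM in PSC to 52.7% and 53.5% in LPO. PDIA3, which works on glycoproteins with CANX and CALR, went from 53.1% and 54.8% to 21.2% and 20.7%. In CPM PDIA3 had 1175 and 1232 in PSC, 1145 and 1300 in DE, 800 and 787 in AFE, and 673 and 662 in LPO. Its fall from DE to AFE was called (log2 change -0.62, adjusted p = 3.4e-04). Its change into LPO (-0.25, adjusted p = 0.014) turned to 0.24 on the FPKM scale and 0.18 with the length trend removed, and the call ended without AFE replicate 1, AFE replicate 2 or LPO replicate 2 (-0.26 to -0.24) and with DESeq2 size factors (-0.19). PDIA4 rose from 448 and 492 CPM in PSC to 628 and 667 in DE (log2 change 0.46, adjusted p = 4.9e-04), and this call ended with median centring (0.15) and with the length trend removed (0.13).

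ERO1A, the oxidase that recharges P4HB (chromosome 1, 182265261 to 182318195), had 38.8 and 32.7 CPM in PSC, 203 and 17.7 in DE, 5.19 and 7.55 in AFE, and 1228 and 1209 in LPO. The LPO libraries were above all others and those of AFE below all others, while the 2 DE libraries lay on either side of PSC. The rise from AFE to LPO was 191-fold (log2 change 7.58, SE 1.11, adjusted p = 5.3e-04) and that from PSC to LPO 34.1-fold (5.09, SE 0.98, adjusted p = 0.0020; 4.35 with the length trend removed). The DE libraries differed 11.5-fold, so the change from PSC to DE was not called (log2 change 1.63, SE 0.86, adjusted p = 0.15). It was -1.01 without DE replicate 1 and, called, 2.49 without DE replicate 2. The fall to AFE (-4.12, adjusted p = 0.013) was -1.47 without DE replicate 1 and -5.01 without DE replicate 2, and it was no longer called without AFE replicate 1 (-3.87), without AFE replicate 2 (-4.41) or on log2(FPKM + 1) (-2.58). ERO1A is known to rise in low oxygen. Of 28 genes known for that response, a list made after the ERO1A values were seen, 26 were higher in DE 1 than in DE 2, with a median ratio of 1.43 and 1 gene over 2-fold. The share of all genes higher in DE 1 is not given here, so this count has no baseline. Of all genes 20.5% differed by over 1.5-fold between the DE libraries. The fibroblast markers summed to 282 CPM in DE 1 and 134 CPM in DE 2. The part of either in the ERO1A difference was not tested. ERO1B, the relative found mainly in secretory glands, stayed at 4.82 CPM or less; it rose from AFE to LPO (log2 change 2.83, adjusted p = 0.0036; 3.74 without AFE replicate 2 and 1.28 on log2(FPKM + 1)).

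**Figure D3:**
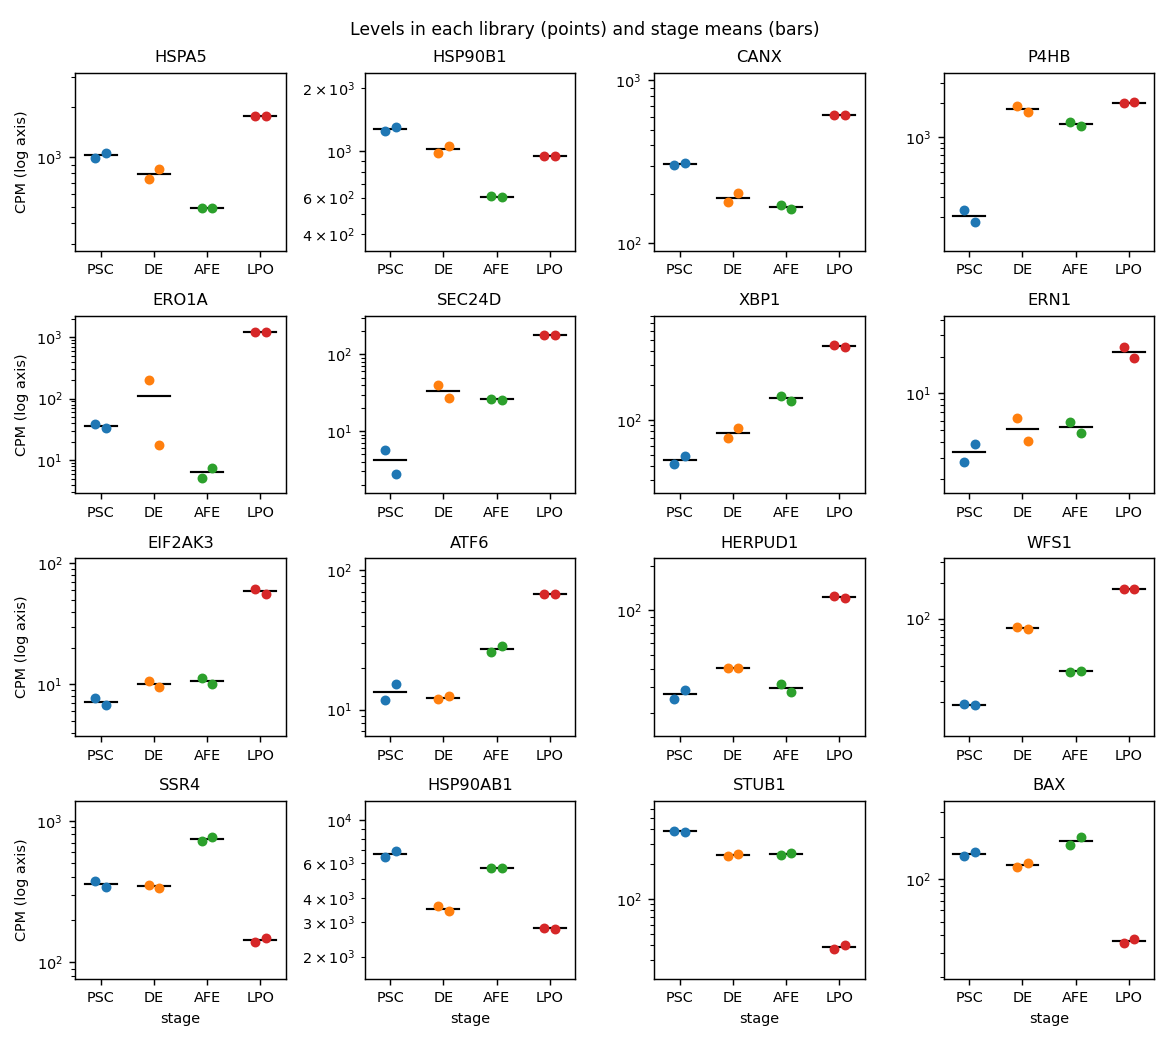
CPM of 16 members in each library on log axes, 1 panel per gene with its own range; points are libraries and bars stage means (n = 2). HSPA5, HSP90B1 and CANX dip towards AFE and rise in LPO, the stress sensors ERN1, EIF2AK3 and ATF6 are highest in LPO, SSR4 and BAX peak in AFE, and ERO1A shows its 2 DE libraries far apart.

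Among the cytosolic chaperones in the entry HSP90AB1 and HSPBP1 fell into LPO. Of 13 members 3 rose and 6 fell from PSC to DE (30.8% and 23.0% of all genes). From DE to AFE 4 rose and 3 fell (17.9% and 17.4%), and from AFE to LPO 2 rose and 8 fell (30.2% and 29.6%). HSP90AB1, the constitutive HSP90, had 6496 and 6950 CPM in PSC, 3626 and 3421 in DE, 5662 and 5684 in AFE, and 2813 and 2781 in LPO. The stages did not overlap and alternated in direction, 1.91-fold lower in DE, 1.61-fold higher in AFE and 2.03-fold lower in LPO (adjusted p = 3.4e-06, 4.2e-05 and 1.4e-06). HSPBP1, an exchange factor of cytosolic HSP70 that inhibits it, had 88.2 and 76.2, 111 and 131, 126 and 137, and 14.4 and 16.3 CPM. It was lowest in LPO, 8.56-fold below AFE (log2 change -3.10, SE 0.13, adjusted p = 6.8e-07; -2.45 on log2(FPKM + 1)). DNAJA2, a co-chaperone of HSP70, was lower from DE onwards, with 82.9 and 99.5 CPM in PSC and 43.1 to 54.3 CPM in the 6 later libraries (log2 change to DE -1.01, adjusted p = 1.2e-04). The small heat shock protein CRYAB was at most 1.43 CPM in any library and overlaps a gene on the opposite strand with far more counts.

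**Figure D4:**
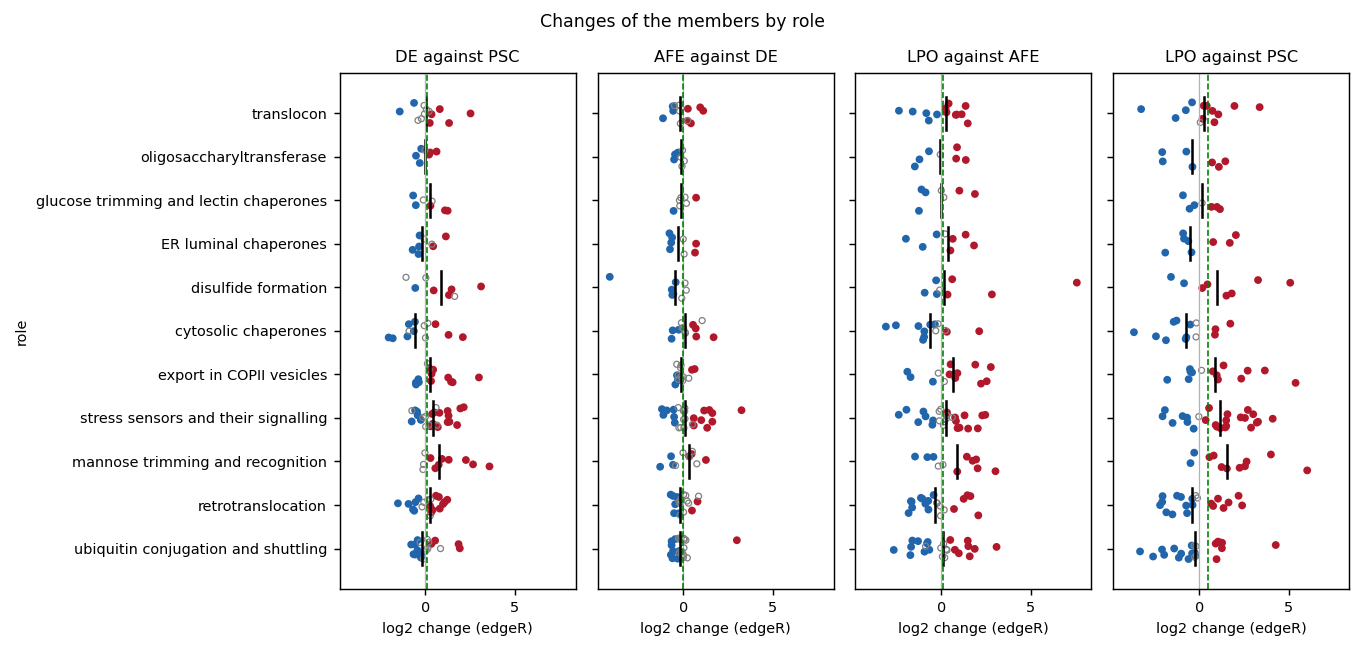
Log2 changes of the members by role in the 4 comparisons (edgeR); filled red points were called higher, filled blue points lower, open points not called. Black bars are role medians and the green dashed line is the median of all genes, and 1 member is not drawn in the panels against PSC. Most roles have called points on both sides of 0 in LPO against AFE, from -3.10 (HSPBP1) to 7.58 (ERO1A).

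In export in COPII vesicles the mRNA shares of the SEC23 and SEC24 coat genes changed, and the coat itself was not measured. The inner coat joins the SEC23 subunits to the SEC24 subunits, which choose the cargo; SEC24D and SEC23A are known for carrying large procollagen. SEC24D (chromosome 8, 104882035 to 104990099) had 5.58 and 2.76 CPM in PSC, 40.2 and 26.9 in DE, 26.6 and 25.3 in AFE, and 177 and 178 in LPO. PSC lay lowest and LPO highest, while DE and AFE were close together. It was 7.94-fold higher in DE than in PSC (log2 change 2.99, SE 0.30, adjusted p = 8.8e-05; 3.60 without PSC replicate 1 and 2.09 on log2(FPKM + 1)) and 6.84-fold higher in LPO than in AFE (log2 change 2.77, SE 0.28, adjusted p = 6.1e-05). SEC24A had 14.2 and 11.9, 35.97 and 34.53, 27.6 and 29.5, and 168 and 165 CPM, and SEC24B 12.28 and 12.03, 15.5 and 17.2, 13.9 and 12.8, and 63.7 and 60.3 CPM. LPO was again the highest stage, with log2 changes from AFE of 2.54 (adjusted p = 6.3e-07; 1.91 with the length trend removed) for SEC24A and 2.22 (adjusted p = 1.5e-06) for SEC24B. SEC24C moved least, from 92.6 and 93.2 CPM in AFE to 157 and 162 in LPO (log2 change 0.78, adjusted p = 3.9e-05), and it overlaps FUT11 on the same strand, which holds 71.3% of its count.

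As shares of the summed SEC24 FPKM, SEC24C went from 72.3% and 75.2% in PSC to 26.9% and 27.8% in LPO, and SEC24D from 6.16% and 3.30% to 38.3% and 38.5%. The SEC23 genes traded places as well. SEC23A rose from 25.3 and 20.8 CPM in PSC to 57.7 and 53.5 in DE, 43.8 and 37.5 in AFE and 150 and 153 in LPO, where it was 3.7-fold above AFE (log2 change 1.9, SE 0.12, adjusted p = 4.8e-06). SEC23B overlaps RBBP9 on the opposite strand, which has 30.9% of its count. It had 115 and 97.4, 78.9 and 82.1, 58.7 and 67.0, and 71.38 and 70.19 CPM. The SEC23B level in LPO did not pass the edgeR test against AFE (log2 change 0.17, adjusted p = 0.20). SEC23A thereby held 15.5% and 15.2% of the pair's FPKM in PSC, 31.9% to 38.5% in DE and AFE, and 63.8% and 64.6% in LPO. The GTPases that start the coat, SAR1A and SAR1B, rose into LPO by log2 changes of 0.46 (adjusted p = 4.2e-04) and 0.52 (adjusted p = 9.2e-04). With the length trend removed SAR1B was at -0.06. Of 14 tested members of the role 9 rose and 3 fell from AFE to LPO, against 30.2% and 29.6% of all genes. The falls were SEC13, a subunit of the outer coat, PREB, which activates SAR1, and LMAN2, a cargo lectin that rose in DE (91.8 and 83.7 to 238 and 264 CPM) and fell in LPO (59.0 and 63.8 CPM).

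**Figure D5:**
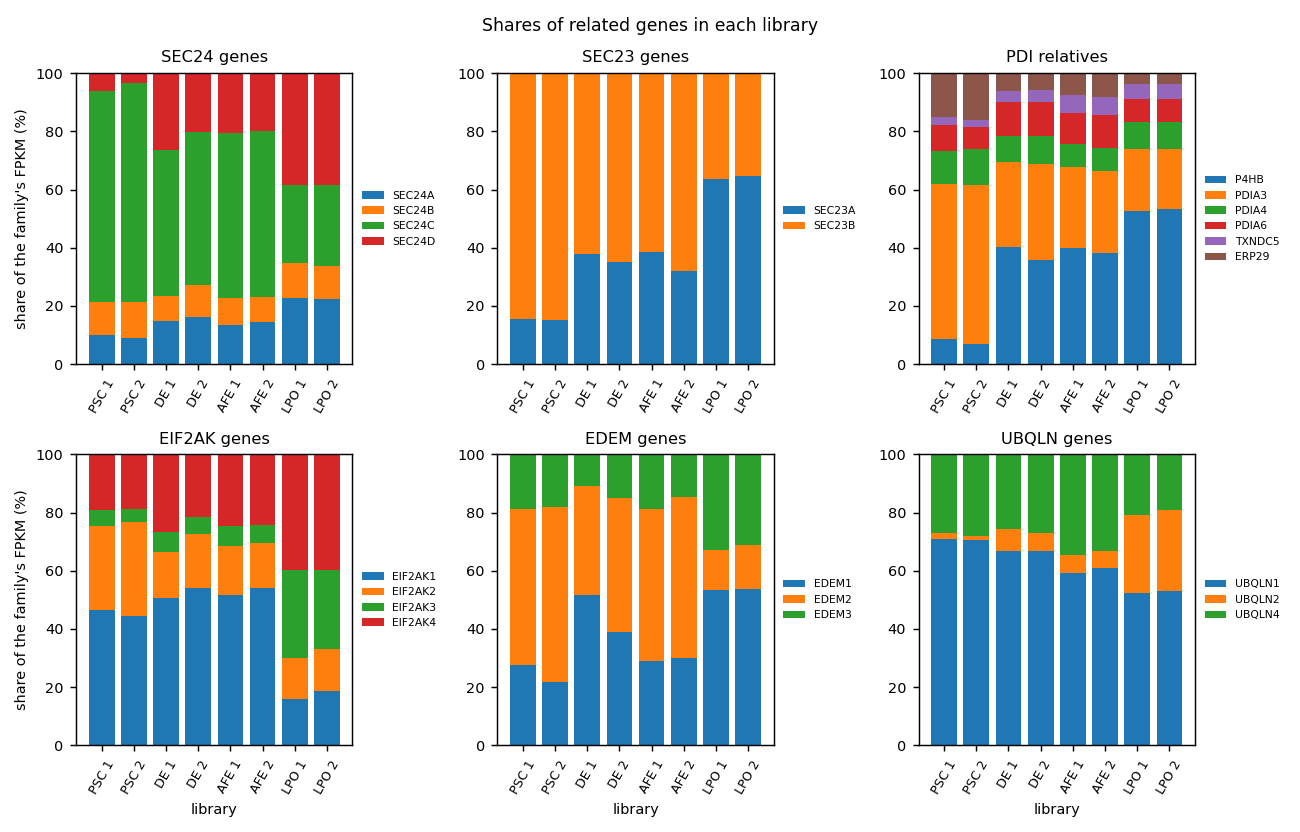
Share of the summed FPKM held by each gene of 6 families of related genes, 1 bar per library. The shares of SEC24D and SEC23A widen in LPO while those of SEC24C and SEC23B narrow. The share of P4HB is wider from DE onwards and that of PDIA3 narrower, and the EIF2AK3 share widens in LPO. A narrower share is not a lower level: SEC24C rose into LPO, and PDIA3 was not called from PSC to DE.

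All 3 sensors of unfolded protein were highest in LPO. ERN1, a kinase and nuclease that splices XBP1 mRNA, had 2.75 and 3.86 CPM in PSC, 6.28 and 4.07 in DE, 5.86 and 4.74 in AFE, and 23.9 and 19.6 in LPO. PSC lay lowest and LPO highest, with DE and AFE overlapping, and LPO was 4.1-fold above AFE (log2 change 2.04, SE 0.28, adjusted p = 3.5e-04; 1.38 with the length trend removed). EIF2AK3, the kinase that slows translation, had 7.66 and 6.74, 10.7 and 9.58, 11.3 and 10.1, and 61.0 and 56.3 CPM. It rose 5.5-fold from AFE to LPO (log2 change 2.46, SE 0.13, adjusted p = 2.2e-06). ATF6, a transcription factor released from the membrane by cleavage, had 11.7 and 15.2, 11.8 and 12.5, 25.9 and 28.6, and 66.8 and 67.2 CPM. Unlike the other sensors it rose already from DE to AFE (log2 change 1.16, SE 0.14, adjusted p = 5.1e-04) and again into LPO (1.30, adjusted p = 7.8e-05; 0.40 with the length trend removed). Its relative ATF6B rose from DE to AFE (24.7 and 37.2 to 76.6 and 79.3 CPM, adjusted p = 0.0019) and then stayed at 84.9 and 90.2 CPM, a change that did not pass the test (log2 change 0.17, SE 0.20).

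The targets of the sensors within the entry did not share 1 course. XBP1, the factor made active by ERN1 (chromosome 14, 46008377 to 46016526), had 41.4 and 48.6 CPM in PSC, 69.7 and 85.2 in DE, 162 and 147 in AFE, and 448 and 429 in LPO. It rose in each step without overlap, by 1.72-fold, 2.00-fold and 2.84-fold (adjusted p = 8.4e-04, 5.0e-04 and 1.6e-05). The deposited values do not tell its spliced from its unspliced form. ATF4, the factor translated when EIF2AK3 is active, was highest in PSC (642 and 727 CPM) and lay at 418 to 497 CPM in the 6 later libraries, with a fall of 1.5-fold to DE (log2 change -0.58, adjusted p = 0.0011). From AFE to LPO its log2 change was -0.11 (adjusted p = 0.33), 0.38 on the FPKM scale and 0.47 with the length trend removed. DDIT3 (CHOP, a target of ATF4) had 9.60 and 6.39, 8.99 and 9.32, 24.5 and 25.7, and 45.3 and 49.0 CPM and was called higher in the last 2 steps. MARS1 on the opposite strand, with 552% of its count, overlaps it, so these values are uncertain. The DDIT3 change into LPO was 0.91 on log2, and 1.68 with the length trend removed. PPP1R15A (GADD34), which restores translation, rose in DE from 35.1 and 39.9 to 96.5 and 86.5 CPM, fell to 41.9 and 42.4 in AFE and rose to 74.9 and 73.8 in LPO (adjusted p = 1.7e-05, 9.6e-05 and 1.4e-04).

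WFS1, an ER membrane protein that restrains ATF6 and is mutated in Wolfram syndrome, alternated as well. It had 19.1 and 18.7 CPM in PSC, 85.5 and 81.2 in DE, 35.8 and 36.6 in AFE, and 176 and 177 in LPO. The stages were clear of each other, with steps of 4.41-fold up, 2.30-fold down and 4.88-fold up (log2 change into LPO 2.29, SE 0.07, adjusted p = 3.1e-07). Of the summed FPKM of the 4 kinases of the translation factor eIF2, EIF2AK3 held 5.32% and 4.45% in PSC and 30.6% and 27.3% in LPO. EIF2AK2, the sensor of double-stranded RNA, had 78.6 and 91.8 CPM in PSC and 46.3 to 56.1 CPM later; its log2 change from AFE to LPO was 0.12 (adjusted p = 0.40), and -0.69 with the length trend removed.

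Genes of cell death in the entry moved apart. BAX, a pore former of mitochondria, had 147 and 156 CPM in PSC, 123 and 130 in DE, 177 and 201 in AFE, and 35.3 and 37.6 in LPO, a fall of 5.2-fold in the last step (log2 change -2.38, SE 0.09, adjusted p = 5.0e-07; -1.61 with the length trend removed). BAK1, the other pore former, fell in that step too. BCL2, which blocks both, was at 0.248 to 0.502 CPM in PSC and DE and at 4.05 to 5.65 CPM in AFE and LPO. The rise of BCL2 came from DE to AFE (log2 change 3.25, SE 0.37, adjusted p = 4.0e-04; 0.57 on log2(FPKM + 1), a scale that damps low genes). CAPN2, a calcium-activated protease, was highest in AFE, with 164 and 155, 240 and 274, 802 and 780, and 203 and 207 CPM, up 3.1-fold and then down 3.9-fold (adjusted p = 7.2e-06 and 5.8e-07). These genes were placed in the role of stress sensors and their signalling, with the sensors described above. Over that whole role of 25 members 13 rose and 5 fell from PSC to DE (30.8% and 23.0% of all genes). From DE to AFE 9 rose and 6 fell (17.9% and 17.4%), and from AFE to LPO 10 and 7 (30.2% and 29.6%). In LPO against PSC 17 were higher and 7 lower (41.5% and 28.8%). The median log2 change in LPO against PSC was 1.18, where that of all genes was 0.49. With the length trend removed the last split was 13 and 9 with a median of 0.71.

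In the role of mannose trimming and recognition EDEM1, EDEM3 and MAN1A1 rose into LPO. Of the 11 members placed in this role, NGLY1 among them, 8 rose from PSC to DE (30.8% of all genes) and the other 3 were not called. These 3, EDEM2, EDEM3 and MAN1A2, had edgeR adjusted p of 0.51 to 0.83. With median centring 5 rose and 2 fell in that step, and with the length trend removed 4 rose and 1 fell. From DE to AFE 3 rose and 3 fell (17.9% and 17.4% of all genes). From AFE to LPO 6 rose and 3 fell (30.2% and 29.6%). In LPO against PSC 9 were higher and 2 lower (41.5% and 28.8%). EDEM1, a mannosidase that commits glycoproteins to degradation, had 29.5 and 22.1 CPM in PSC, 77.6 and 49.9 in DE, 38.6 and 40.6 in AFE, and 152 and 153 in LPO. It was highest in LPO, 3.9-fold over AFE (log2 change 1.95, SE 0.21, adjusted p = 9.7e-05). EDEM3 stayed at 18.0 to 27.9 CPM until AFE and rose to 105 and 99.8 CPM in LPO (log2 change 2.03, SE 0.14, adjusted p = 8.1e-06; 1.4 with the length trend removed). MAN1A1, a mannosidase, had 0.794 and 0 CPM in PSC, 2.63 and 1.4 in DE, 3.44 and 3.35 in AFE, and 28.2 and 27.1 in LPO, 8.14-fold over AFE (log2 change 3.03, adjusted p = 0.0048; 2.28 on log2(FPKM + 1)). The MAN1A1 call into LPO ended with the DESeq2 test (log2 change 3.09), and its level in PSC rests on 1 library. OS9, a lectin that hands substrates to the ligase, had 160 and 149, 187 and 187, 258 and 258, and 222 and 236 CPM, with a called rise from DE to AFE (log2 change 0.46, adjusted p = 0.0012). FBXO2, a ubiquitin ligase subunit for glycoproteins, peaked in DE at 34.4 and 36.7 CPM from 3.08 and 2.85 in PSC (log2 change 3.58, adjusted p = 1.1e-06; 2.96 on log2(FPKM + 1)), but an overlapping gene on the opposite strand has 458% of its count, which makes these values uncertain.

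In retrotranslocation the scaffold SEL1L and its organiser HERPUD1 rose into LPO, while VCP and its cofactor UFD1 fell. Of 20 tested members 9 rose and 6 fell from PSC to DE (30.8% and 23.0% of all genes). From AFE to LPO 5 rose and 10 fell (30.2% and 29.6%). In LPO against PSC 7 were higher and 11 lower (41.5% and 28.8%). SEL1L, the scaffold of the central ligase, had 27.5 and 24.2 CPM in PSC, 41.0 and 46.3 in DE, 43.8 and 44.3 in AFE, and 137 and 136 in LPO, a rise of 3.1-fold into LPO (log2 change 1.63, SE 0.10, adjusted p = 3.5e-06; 0.99 with the length trend removed). HERPUD1, a stress-induced organiser of that ligase, had 25.1 and 28.7, 40.2 and 40.7, 31.2 and 27.6, and 126 and 121 CPM (log2 change into LPO 2.07, SE 0.10, adjusted p = 1.5e-06). Both were highest in LPO without overlap. SYVN1 (HRD1), the ligase itself, rose from 38.8 and 28.2 CPM in PSC to 52.0 and 64.9 in DE (adjusted p = 0.0038) and had 57.2 and 58.2 CPM in LPO, with an overlapping gene of about equal count on the opposite strand. The channel relative DERL1 had 80.4 and 84.6 CPM in DE and 51.4 to 56.2 CPM in the AFE and LPO libraries. DERL3, at 11.3 CPM or less, overlaps SMARCB1, with 3891% of its count, so its values are uncertain.

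VCP, the ATPase that pulls substrates out, had 863 and 805 CPM in PSC, 514 and 619 in DE, 486 and 492 in AFE, and 295 and 297 in LPO. It was lower in LPO than in every other library, 2.8-fold below PSC (log2 change -1.5, SE 0.09, adjusted p = 2.2e-06; -2.36 with the length trend removed). Its fall from AFE (-0.73, adjusted p = 1.8e-04) was -0.23 on the FPKM scale, where the call ended. The cofactor UFD1, which guides VCP to ubiquitin chains, went from 179 and 199 CPM in PSC to 92.5 and 103 in DE, 67.6 and 68.7 in AFE, and 40.6 and 42.4 in LPO. UFD1 fell in every step and was 4.6-fold lower at the end (log2 change -2.19, SE 0.09, adjusted p = 3.2e-07; -3.02 with the length trend removed). BCAP31, a sorting factor of the ER membrane, fell from 488 and 490 CPM in AFE to 151 and 151 CPM in LPO (log2 change -1.70, adjusted p = 2.3e-06; -0.93 with the length trend removed). Among other VCP partners NSFL1C, PLAA and NPLOC4 fell in the same step, UBXN4 and UBXN2A rose, and UBXN8 and SVIP were not called.

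In ubiquitin conjugation the ligases STUB1 and RNF5 fell into LPO and the shuttle UBQLN2 rose. Of 24 members 5 rose and 11 fell from PSC to DE (30.8% and 23.0% of all genes), and 1 rose and 9 fell from DE to AFE (17.9% and 17.4%). From AFE to LPO 8 rose and 9 fell, near the 30.2% and 29.6% of all genes. In LPO against PSC 8 were higher and 12 lower (41.5% and 28.8%). STUB1 (CHIP, which tags clients of HSP70 and HSP90) had 389 and 375 CPM in PSC, 234 and 245 in DE, 238 and 247 in AFE, and 37.0 and 39.8 in LPO. LPO stood far below the rest, 6.31-fold under AFE (log2 change -2.66, SE 0.07, adjusted p = 1.8e-07; -1.92 with the length trend removed) and 9.95-fold under PSC. RNF5, an ER membrane ligase, went from 179 and 186 CPM in PSC to 102 and 102 in AFE and 28.6 and 32.6 in LPO (log2 change from AFE -1.73, SE 0.08, adjusted p = 1.2e-06; -0.97 with the length trend removed). UBE2J1, the conjugating enzyme of the central ligase, was at 41.7 to 64.9 CPM in all 8 libraries and passed no test.

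UBQLN2, a shuttle that carries tagged proteins to the proteasome, rose from 2.31 and 1.43 CPM in PSC to 7.51 and 6.03 in DE, had 4.37 and 4.2 in AFE, and reached 36.1 and 36.9 in LPO (8.51-fold over AFE, log2 change 3.09, SE 0.23, adjusted p = 1.0e-05; 3.73 with the length trend removed). Its share of the summed FPKM of the 3 ubiquilins went from 1.18% and 2.04% in PSC to 26.7% and 27.9% in LPO. UBQLN2 is close in sequence to UBQLN1, and how the authors counted reads that match both was not stated; the same holds for the 4 UBE2D enzymes.

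Neighbouring genes of the pathway that the entry does not hold were counted from lists, and those given values below were chosen after their values were seen. From AFE to LPO 30.2% of all genes rose and 29.6% fell, and 41.5% were higher and 28.8% lower in LPO than in PSC. Values with the length trend removed are not given for these lists. In the shortest length group all genes had a median log2 change of -0.77 from AFE to LPO, and in the longest 0.67. The signal peptidase, membrane complex and tail-anchor genes that fell in that step lay in both groups and between them. SPCS1, EMC4, EMC6, EMC9 and GET3 were in the shortest group, and SEC11A, EMC1 and EMC2 in the longest. The 5 genes of the signal peptidase, which cuts the leader off entering proteins, were all lower in LPO than in PSC (edgeR), with a median log2 change of -1.48, and 4 fell from AFE to LPO. For SPCS2 the FPKM ran the other way, with means of 79.6 in PSC and 86.2 in LPO. Of 9 tested genes of the ER membrane protein complex, which inserts membrane proteins, 8 fell from AFE to LPO (median log2 change -1.11), and EMC7 was not called. Of the 8, EMC1 and MMGT1 had higher mean FPKM in LPO (7.54 and 6.15) than in AFE (6.4 and 5.36). Of 5 tested genes for inserting tail-anchored proteins 4 fell (median log2 change -1.08), and CAMLG was not called. Of 8 genes of the signal recognition particle and its receptor 4 rose and SRP14 fell. Of 5 tested receptors and factors of ER-phagy, the removal of ER by autophagy, 4 rose into LPO (RETREG1, CCPG1, ATL3, CALCOCO1) and TEX264 fell, and of 7 genes of the UFM1 conjugation route 4 rose and 3 fell.

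A list of 17 genes known as targets or factors of the stress response outside the entry also split. From PSC to DE 10 rose and 4 fell (30.8% and 23.0% of all genes), and from AFE to LPO 6 rose and 7 fell (30.2% and 29.6%). Of the 7, MANF had a slightly higher mean FPKM in LPO (62.2, against 61.1). The chaperone DNAJB9 went from 9.72 to 42.4 CPM (stage means), the factor ATF3 from 23.8 to 92.0 CPM and the mTOR inhibitor DDIT4 from 203 to 1107 CPM. DDIT4 is also in the list of genes known to rise in low oxygen. The ER proteins SDF2L1 and CRELD2, also known as targets of ATF6 and XBP1, fell in the same step from 16.2 to 3.26 and from 61.1 to 16.1 CPM, and the ATF4 targets ASNS and CHAC1 from 299 to 76.1 and from 33.7 to 3.88 CPM. The list's median log2 change in that step was -0.16, where that of all genes was 0.09.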

How the data were processed

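Poly(A) RNA was captured with oligo(dT), made into stranded (dUTP) libraries and read from both ends on a NovaSeq instrument, per the labels' protocols. Per the submitters' processing notes the tools were HISAT2 2.2.1 and StringTie 2.1.6, besides cutadapt 1.9, edgeR and DESeq2; which step each served was not stated. The authors deposited expected counts, whole numbers per gene with no scaling between libraries, and FPKM in the same table. The genome build and the strand setting used in counting were not given in the sources used here.

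Members came from the table's KEGG column: 149 had a symbol there, 3 (BAK1, DNAJA1, SKP1) from reference tables and 1 (SEC23A) from its description, and 1 has none. ATXN3 is listed as ATXN3L. By hand 152 of the 154 were placed in 1 of 11 roles, and 2 (TRAM1L1 and the unnamed gene) in none. The members, roles, lists and naming rule were chosen with earlier results of these data known. HSP90AA1 was not analysed here.

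Counts of 19346 genes passing filterByExpr were scaled with TMM (factors 0.901 to 1.27) and tested in 1 quasi-likelihood model of all 8 libraries (edgeR 4.0.16, R 4.3.3, limma 3.58.1, DESeq2 1.42.0; 4 residual degrees of freedom). Every adjusted p is a Benjamini-Hochberg value over all tested genes, called under 0.05, and each stage has n = 2. The main edgeR fit was also run on simulated counts in which few genes changed, in DE alone. Such counts cannot show how the scaling behaves where many genes change, as in these data. mRNA length is the ratio of count to FPKM, for genes of at least 0.2 FPKM. Figures used Python 3.11.15 and matplotlib 3.10.9.

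Named with values are 49 members that define each role, per comparison the 5 largest rises and falls among called members of at least 5 FPKM in the higher stage without overlap, members at 0 in a stage, and the most abundant member of each role. Some members that this rule names are not reported here. Of the members 34 overlap another gene, and for 18 the overlapping gene has at least 10% of the member's count, mostly on the opposite strand. Replicate numbers were not used to pair libraries in the main fit: deviations of same-numbered libraries correlated by -0.0136 to 0.00782. Such correlations over all tested genes cannot show whether same-numbered libraries shared a culture or batch. Alternatives were DESeq2 size factors, median centring, no filter, the DESeq2 test, limma on log2(FPKM + 1) and log2(FPKM + 0.1), a replicate block, only the libraries compared, each library left out and, chosen after seeing the data, counts divided by 4 and the length trend removed (lowess, span 0.3). A leave-one-out fit assumes that the lone library varies like the others. No sequences are printed, since none were at hand.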

Additional observations from a re-analysis of the deposited data

How the results depend on the processing

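The number of members that differed among the stages was 144 to 147 under every alternative run. From PSC to DE the count of rises (63) fell to 37 with median centring and to 37 with the length trend removed. The count of falls from DE to AFE (46) was 27 to 51 with 1 library left out, lowest without AFE replicate 2 (27) and AFE replicate 1 (30). Lower members in LPO against PSC (63) were 38 by limma on log2(FPKM + 1) and 38 on log2(FPKM + 0.1). The other counts stayed within 1.5 times. With the replicate number as a block, rises and falls were 60 and 44, 27 and 40, 60 and 56, and 73 and 61 in the 4 comparisons; the block ended 8 of 280 values of named genes and turned none. With counts divided by 4, 274 of the 280 kept direction and side of the threshold, and without the low-count filter 275. DESeq2 size factors and the DESeq2 test turned none. Directions that turned were mostly small changes. With median centring they were, from PSC to DE, PDIA3 (-0.29), SEC24C (-0.11), CALR (-0.04), OS9 (-0.04), DDOST (-0.05) and STT3A (-0.11), and in LPO against PSC PDIA4 (-0.35), CAPN2 (-0.16) and SEC61B (-0.33). With the length trend removed they were, from PSC to DE, PDIA3 (-0.49), SAR1A (-0.01), SEC24C (-0.05), CALR (-0.23), OS9 (-0.12), DDOST (-0.24) and STT3A (-0.06). From AFE to LPO they were HYOU1 (-0.06), PDIA3 (0.18), SAR1B (-0.06), CALR (0.41), UGGT1 (-0.68), ATF4 (0.47), EIF2AK2 (-0.69) and SSR2 (0.07). In LPO against PSC they were PDIA4 (-0.34), CAPN2 (-0.11) and the gene without a symbol, ENSSSCG00000012165 (-0.58). By limma on log2(FPKM + 1) and log2(FPKM + 0.1) they were, from AFE to LPO, PDIA3 (0.24 and 0.24), CALR (0.49 and 0.49), OS9 (0.32 and 0.32), DERL1 (0.40 and 0.42) and ATF4 (0.38 and 0.38), and in LPO against PSC CALR (0.14 and 0.14), DDOST (0.03 and 0.04), DERL1 (0.03 and 0.03) and SSR2 (0.01 and 0.01). FPKM carry no TMM scaling, whose factors are higher in LPO (1.26 and 1.27, against 0.901 to 0.954), so limma on them shifts LPO upwards by construction. ERO1A from PSC to DE turned to -1.01 without DE replicate 1 and was called at 2.49 without DE replicate 2. The cause of the other turns was not tested. At the inferred 4 counts for 1 read pair, the libraries held about 9001093 to 16891567 read pairs. Members under 1 CPM then rest on few reads.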

Other observations

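Between the DE libraries, genes known to rise in low oxygen, a list made after the ERO1A values were seen, were higher in DE 1 than in DE 2 in 26 of 28 cases. No share over all genes stands beside this count. The genes given here were picked with their values in view. The mitophagy receptor BNIP3 had 1650 and 956 CPM, the glycolytic regulator PFKFB3 227 and 127 CPM, the glycolytic enzyme PGK1 1361 and 832 CPM, and the differentiation gene NDRG1 90.5 and 45.3 CPM. The growth factor VEGFA (81.8 and 73.8 CPM) and the peptide hormone ADM (81.3 and 73.7 CPM) differed by 1.11-fold and 1.10-fold, and carbonic anhydrase CA9 ran the other way (14.5 and 15.3 CPM). None of them came near the 11.5-fold gap of ERO1A. The collagen COL1A1 had 123 and 21.7 CPM in the same libraries, while COL3A1 had 28.5 and 19.3 CPM.

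From AFE to LPO 25 of the 28 rose by edgeR, against 30.2% of all genes, 2 (CA9 and ANGPTL4) fell and ENO1 was not called. VEGFA went from 48.2 to 557 CPM, the prolyl 4-hydroxylase subunit P4HA1, which pairs with P4HB, from 59.3 to 727 CPM, and KDM3A, a histone demethylase, from 32.1 to 285 CPM, all as stage means. CA9 fell from 21.4 to 6.21 CPM, and ENO1, a glycolytic enzyme, was at 7643 and 6716 CPM (log2 change -0.19, edgeR adjusted p = 0.38). Their part in the ERO1A rise was not tested.

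The member without a symbol, ENSSSCG00000012165, lay at 14.7 to 20.9 CPM in all 8 libraries and passed no test in any of the 4 comparisons.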
